A study of Mus musculus with 2 samples.

Results

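The 9 genes described here encode components and receptors of the complement system: C1qa, C1qb, C1qc and C2 of the classical pathway, C3, Cfb and Cfp of the alternative pathway, and the anaphylatoxin receptors C3ar1 and C5ar1. They were taken by symbol from a list of names, and all 9 were found among the 23444 gene symbols listed in each library. The data are 2 RNA-seq libraries of macrophages cultured from the bone marrow of FVB mice. They are called here by their labels, WT for RON-proficient mice and RON TK-/- for RON-deficient mice, in which the tyrosine kinase of the macrophage receptor RON is missing. Per the labels, both cultures were kept in high-glucose medium with serum and received recombinant interleukin-4 (rIL-4) at 10 ng/mL for 72 hours. The labels used here give neither the age of the mice nor how many were pooled. The question put by the design is what loss of RON changes in macrophages given rIL-4. With 1 library per group no test was possible, and each value below sets 1 library against the other, which says nothing of the spread between cultures or animals.

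Complement is a set of blood and tissue proteins that tag microbes and dying cells for uptake. In the classical pathway, C1q binds a target and its attached proteases cleave C4 and C2, which together form an enzyme that cleaves C3. In the alternative pathway, C3 and factor B form that enzyme on the target surface and properdin stabilises it. The small fragments C3a and C5a act on receptors of myeloid cells. The liver makes most circulating complement, but macrophages are a main source of C1q and properdin, and inflammatory stimuli are known to raise C3 and factor B in them.

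The libraries did not match their shared label of rIL-4 treatment equally. Each was deposited as FPKM, the fragments per kilobase of transcript scaled to library depth. Of 4 genes of the interleukin-4 response (Arg1, Retnla, Chil3 and Mrc1), 2 were listed at 0 in the WT library, and the 4 summed to 72.2 FPKM there against 14326 FPKM in the RON TK-/- library. The inflammatory genes Nos2, Il1b, Tnf and Cxcl10 had the opposite order, with sums of 7896 and 4.58 FPKM. Mst1r, which encodes RON, was listed at 0 in both libraries and checked neither label. In every difference below, RON genotype, the treatment the cells received and the labelling of the libraries cannot be told apart. Macrophage markers were present, with 8 of 8 detected and sums of 4823 and 6406 FPKM, although Fcgr1, Mertk and Spi1 were at least 2-fold lower and Itgam at least 2-fold higher in the RON TK-/- library. Fibroblast markers were also present (6 of 7 detected, 673.7 and 898.9 FPKM in sum, led by Col1a2 and Col1a1), and Col3a1 (48.5 and 170.5 FPKM) and Pdgfra (8.93 and 24.3 FPKM) were at least 2-fold higher in the RON TK-/- library. Hepatocyte markers summed to 0.0366 and 0.534 FPKM with Ttr, Tat and Serpina1a at 0 in both, and 6 of 6 mast cell and eosinophil markers were at 0. The lists of neutrophil, T and NK cell, B cell, dendritic cell and erythroid markers each summed to at most 2.42 FPKM in a library, with S100a8 their detected gene at 1.44 and 1.75 FPKM. In such bulk cultures, fewer cells of a type and less RNA per cell cannot be told apart.

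Of the 9 complement genes, 3 were at least 2-fold lower in the RON TK-/- library, 0 were at least 2-fold higher and 6 lay within 2-fold. The lower genes were Cfb, C3 and C2, 1 gene of the classical and 2 of the alternative pathway. The measure was the log2 ratio of FPKM + 1, RON TK-/- over WT label, which understates differences of low genes. Of the 11288 genes that reached 1 FPKM in a library, called detected here, 8.71% were lower by that limit, 25.6% higher and 65.7% within it. The median log2 ratio was -0.12 over the 9 genes and 0.57 over all detected genes. Measured from that common median, 4 of the 9 were at least 2-fold lower and 0 higher, where 14.4% of detected genes were lower and 8.38% higher, and the fourth gene was C5ar1. All 9 genes passed the minimum of 1 FPKM in both libraries, so no ratio rests on a value at 0.

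**Figure D1:**
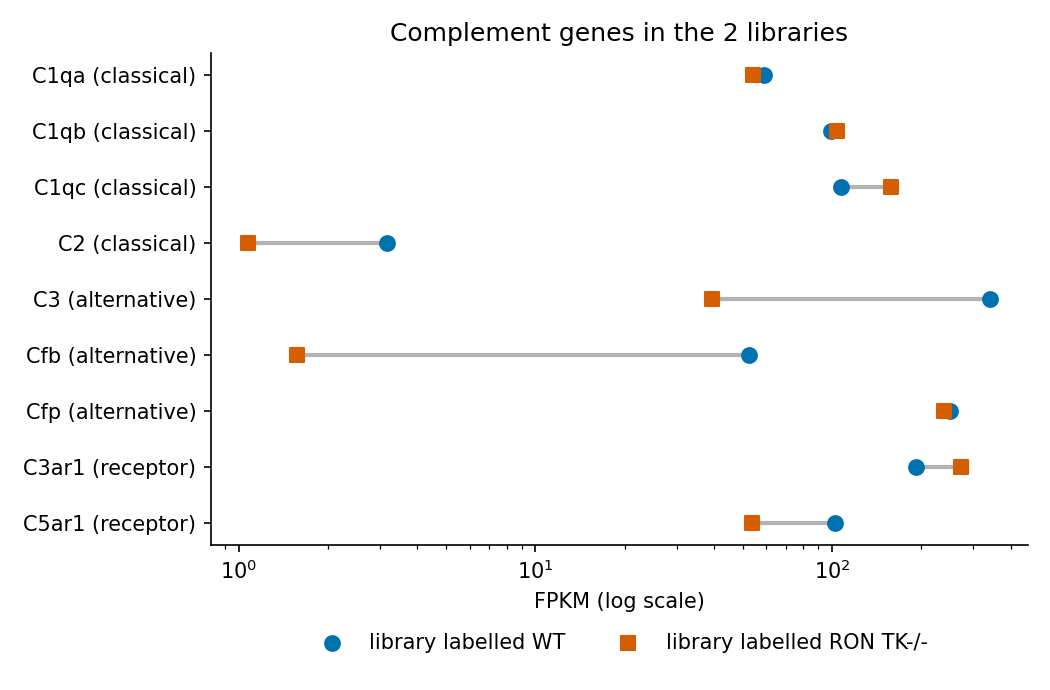
FPKM of the 9 complement genes on a log axis, 1 point per library (circles, library labelled WT; squares, library labelled RON TK-/-), with grey lines joining the values of a gene. The points of Cfb (52.7 and 1.57), C3 (342.0 and 39.4) and C2 (3.16 and 1.07) lie far apart, and those of C1qa, C1qb and Cfp almost coincide.

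The order of the genes by level, which FPKM allows because it is per length, differed between the libraries. In the WT library, C3 was the most abundant of the 9, followed by Cfp, C3ar1, C1qc, C5ar1, C1qb, C1qa, Cfb and C2. In the RON TK-/- library the order was C3ar1, Cfp, C1qc, C1qb, C1qa, C5ar1, C3, Cfb and C2. C3 thus moved from the first to the seventh place, while Cfp was second, Cfb eighth and C2 last in each. Without replicates there is no spread against which neighbours in these orders could be told apart, and C1qc, C5ar1 and C1qb lay between 99.4 and 106.9 FPKM in the WT library.

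The C1q genes encode the A, B and C chains of the recognition molecule C1q, which binds antibody complexes and dying cells. They lie side by side on chromosome 4 of the mm10 build, on the minus strand with 3 exons each in the GENCODE annotation, C1qb from 136880145 to 136886177, C1qc from 136889802 to 136892914 and C1qa from 136895916 to 136898844. C1qa had 59.1 FPKM in the WT library and 54.3 FPKM in the RON TK-/- library. C1qb had 99.4 and 104.1 FPKM. C1qc had 106.9 and 158.3 FPKM. The trio was therefore abundant in both libraries, at or above percentile 88.4 of detected genes for every chain, and none of the chains was 2-fold apart. The log2 ratios were -0.12 for C1qa, 0.07 for C1qb and 0.56 for C1qc as deposited, and relative to the common median they were -0.69, -0.50 and -0.0035, so the sign for C1qb and C1qc turned with that rescaling. Within a library, C1qb was 1.68 and 1.92 times the level of C1qa, and C1qc was 1.81 and 2.92 times it. C1qc was thus higher relative to C1qa in the RON TK-/- library, without a spread against which to set this. About 3848 and 3955 estimated reads lay behind C1qa, the least covered chain.

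Promoter sequences of 6 of the 9 genes were found in the RefSeq table of GRCm38.p6, the assembly that mm10 names. The 250 bases before the start are shown for C1qb and C1qc, whose levels in the libraries were within 2-fold, and for C3, whose levels were not. They are written 5′ to 3′ on the minus strand, at chr4:136886201-136886450, chr4:136892915-136893164 and chr17:57228137-57228386, and capitals mark matches to the motifs searched.
C1qb: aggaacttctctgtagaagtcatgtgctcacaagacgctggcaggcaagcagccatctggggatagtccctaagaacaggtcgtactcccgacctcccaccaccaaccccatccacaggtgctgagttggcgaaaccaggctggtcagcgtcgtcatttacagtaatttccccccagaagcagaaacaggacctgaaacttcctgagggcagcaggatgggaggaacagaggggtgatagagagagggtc
C1qc: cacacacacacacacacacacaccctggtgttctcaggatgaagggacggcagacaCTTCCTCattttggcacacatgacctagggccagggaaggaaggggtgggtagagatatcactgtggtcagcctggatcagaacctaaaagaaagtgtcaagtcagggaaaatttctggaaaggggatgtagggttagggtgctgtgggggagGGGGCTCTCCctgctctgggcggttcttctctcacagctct
C3: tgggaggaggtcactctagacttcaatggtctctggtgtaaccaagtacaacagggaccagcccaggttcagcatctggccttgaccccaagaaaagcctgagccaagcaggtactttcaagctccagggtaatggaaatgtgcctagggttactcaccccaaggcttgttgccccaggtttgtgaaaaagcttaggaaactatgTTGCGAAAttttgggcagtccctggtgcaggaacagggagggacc

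The motifs were searched on both strands, and matches could overlap. They were GAGGAAG (a core bound by PU.1, the macrophage lineage factor), TTNNGCAA (C/EBP), TTC and GAA with 4 bases between them (STAT6), GAAA repeated after 2 bases (the core of the interferon element ISRE), TGCTGAC (a MAF site) and the κB motif. C1qc held a PU.1 core, its first base 194 bases before the start, and a κB match beginning 41 bases before it. C3 held a C/EBP match, ttgcgaaa, beginning 45 bases before the start. C1qb, Cfp, C3ar1 and C5ar1 held none of these motifs in this window. The C1qb and Cfp windows began at 136886201 and 20931556, past the ends of their loci as listed with the data, 136886177 and 20931524. Both genes lie on the minus strand, so the bases between, next to the listed starts, were not searched. The C5ar1 window, from 16259339 to 16259588, overlapped the C5ar1 locus as listed with the data, which ends at 16259540. C5ar1 is also on the minus strand, so that end is where the listed gene starts. The part of the window up to 16259540 thus lay within the gene, and only the bases past it lay before its start. Of all 32851 promoters of this length, 10.6% held the PU.1 core, 9.56% the C/EBP motif, 7.25% the κB motif, 5.85% the STAT6 motif, 3.81% the MAF site and 2.98% the ISRE core. A match describes letters only, and no binding was measured.

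C3, the central component on which both pathways converge, was the most abundant of the 9 genes in the WT library. It lies on chromosome 17 from 57203973 to 57228136, with 41 exons. It had 342.0 FPKM in the WT library and 39.4 FPKM in the RON TK-/- library, 8.67-fold lower in the latter, with a log2 ratio of -3.08. Only 1.96% of detected genes had a lower ratio. C3 remained expressed in the RON TK-/- library, at percentile 84.2 of detected genes and with about 13670 estimated reads.

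Cfb encodes factor B, the protease subunit of the alternative pathway enzyme, and had the largest difference of the 9 genes. It had 52.7 FPKM in the WT library and 1.57 FPKM in the RON TK-/- library. The level was 33.5-fold lower in the latter, with a log2 ratio of -4.38, and 0.983% of detected genes had a lower ratio. About 8665 and 292.2 estimated reads lay behind these values. Cfb went from percentile 88.3 to percentile 8.79 of detected genes. Of its listed transcripts, NM_008198 held 94.0% and 99.9% of the gene's FPKM, and NM_001142706, which is 2743 against 2747 bases long, held the remainder. Its split between such similar transcripts is uncertain.

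Cfp encodes properdin, which stabilises the alternative pathway enzyme, and differed little between the libraries. It lies on chromosome X from 20925535 to 20931524 and has 9 exons. Cfp had 249.8 FPKM in the WT library and 238.6 FPKM in the RON TK-/- library, with a log2 ratio of -0.07, or -0.63 relative to the common median. It was thus the alternative pathway gene within 2-fold, while C3 and Cfb were beyond it. The level of Cfp was 0.73 times that of C3 in the WT library and 6.05 times that of C3 in the RON TK-/- library. Against Cfb it was 4.74 times and 151.9 times as high.

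C2 encodes the classical pathway counterpart of factor B, and was the least abundant of the 9. It had 3.16 FPKM in the WT library and 1.07 FPKM in the RON TK-/- library, 2.94-fold lower, from about 506.1 and 190.2 estimated reads. On the scale of FPKM + 1 its log2 ratio was -1.01, just past the 2-fold limit, and C5ar1 at -0.91 was the nearest gene inside it. With a pseudocount of 5 FPKM the C2 ratio was -0.43 and no longer past 2-fold. C2 and Cfb are neighbours on the minus strand of chromosome 17, C2 from 34862602 to 34882100 and Cfb from 34856374 to 34862514, with 87 bases between them and 18 exons each in GENCODE. In the WT library the level of Cfb was 16.6 times that of C2, and in the RON TK-/- library it was 1.46 times. GENCODE also lists a protein-coding gene, Gm20547, that overlaps both, and Zbtb12 on the opposite strand of the C2 gene model. As listed with the data, Zbtb12 lay 12458 bases from C2. The labels do not state strand use, and overlap between the exons of these genes was not checked. Where exons overlap, reads of such transcripts cannot be told apart here from those of C2 and Cfb.

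**Figure D2:**
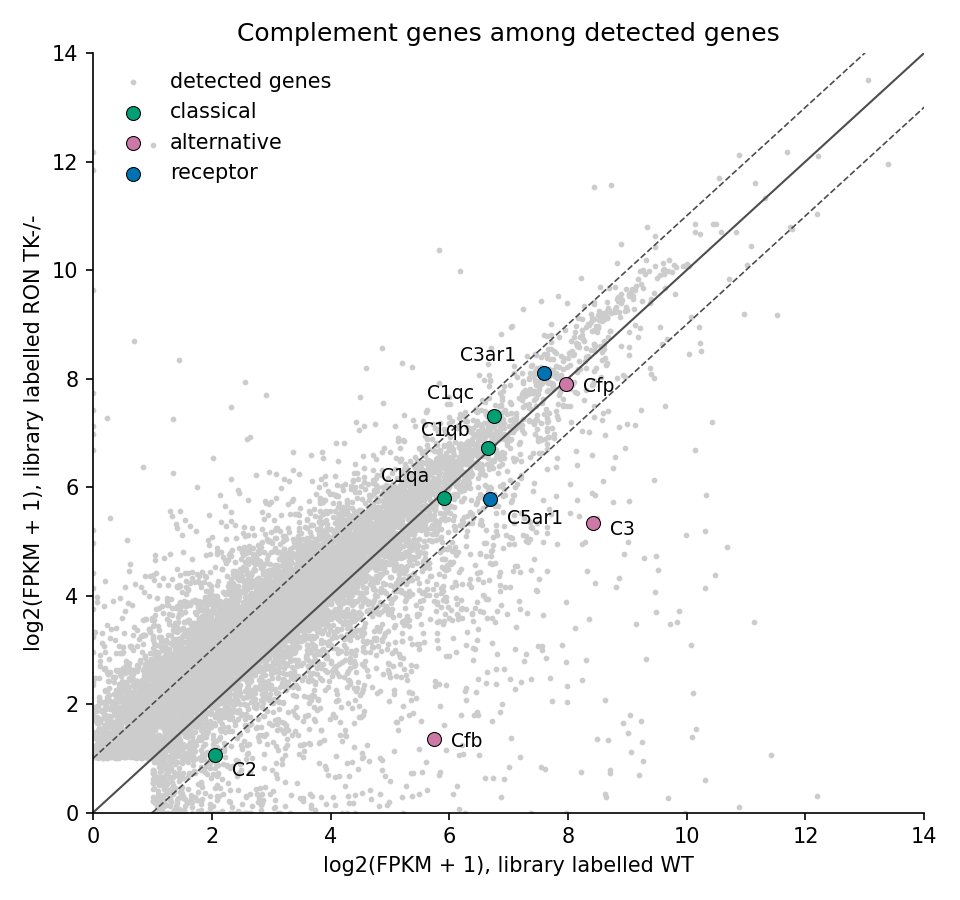
Level of each of the 11288 detected genes (grey) as log2(FPKM + 1) in the WT library (horizontal) and the RON TK-/- library (vertical), with the 9 complement genes coloured by role. The solid line marks equal levels and the dashed lines 2-fold. Cfb and C3 lie below the lower dashed line, C2 on it, and the other 6 between the dashed lines.

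The anaphylatoxin receptors differed in direction as deposited. C3ar1, the receptor for C3a, lies on chromosome 6 from 122847140 to 122856157. It had 191.7 FPKM in the WT library and 273.0 FPKM in the RON TK-/- library, where it was the most abundant of the 9 genes. Its log2 ratio of 0.51 was within 2-fold and near the median of detected genes, and turned to -0.06 when taken relative to that median. C5ar1, the receptor for C5a on chromosome 7 from 16246743 to 16259540, had 102.1 FPKM in the WT library and 53.8 FPKM in the RON TK-/- library. Its log2 ratio was -0.91, within 2-fold as deposited and -1.48 relative to the common median, with 9.36% of detected genes lower. C3ar1 was 1.88 times the level of C5ar1 in the WT library and 5.07 times in the RON TK-/- library. The level of C3ar1 was also 0.56 times that of its ligand precursor gene C3 in the former and 6.92 times in the latter. The main C5ar1 transcript held 95.9% and 97.2% of the gene's FPKM.

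**Figure D3:**
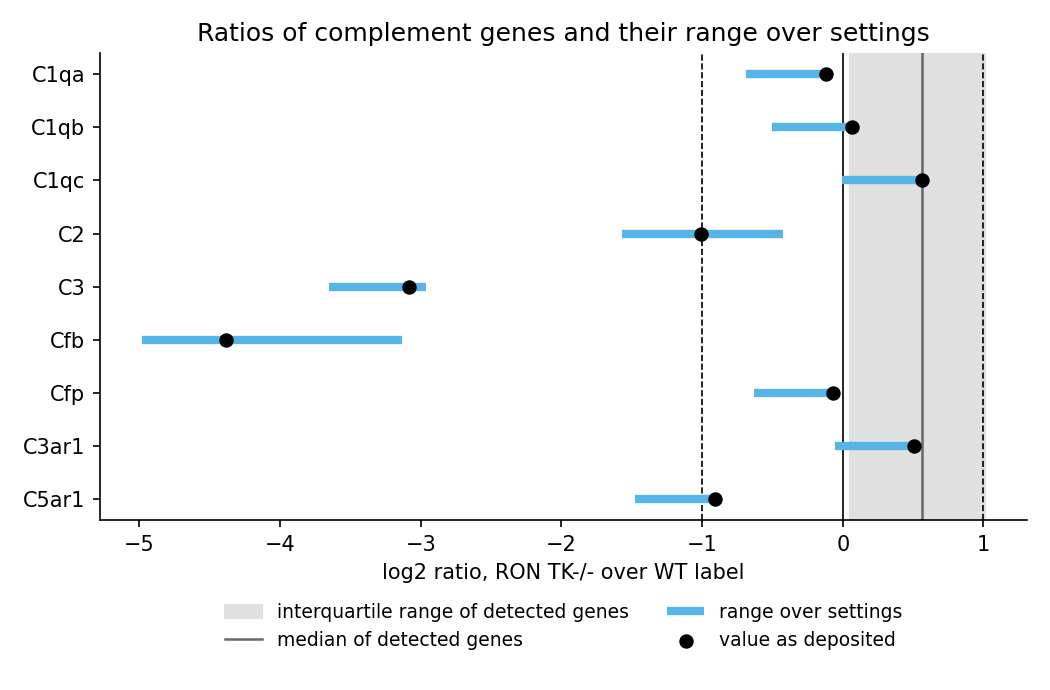
Log2 ratio of the 9 complement genes (black points, values as deposited with 1 added to FPKM) and the lowest to highest value over the processing settings tried (blue bars). Grey shading spans the interquartile range of detected genes, the grey line is their median of 0.57, and dashed lines mark 2-fold. C3 and Cfb stay left of the lower dashed line under every setting, the bar of C2 spans that line, and those of C1qb, C1qc and C3ar1 cross 0.

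The 9 genes were set beside a list of 51 other complement genes, of which 49 were found and 20 detected. Of these 20, 4 were higher by 2-fold or more in the RON TK-/- library and 1 lower, against 25.6% and 8.71% of detected genes, and the median log2 ratio was 0.19. Measured from the common median, 4 were higher and 5 lower, where 8.38% and 14.4% of detected genes were. Of the proteases that partner C1q in the classical pathway, C1s was past 2-fold with 25.8 and 12.2 FPKM (log2 ratio -1.02). C1ra with 21.7 and 11.6 FPKM (-0.85) and C1rb with 1.68 and 0.90 FPKM (-0.49) were within it. C4b, whose product is cleaved by C1s, had 2.39 and 1.53 FPKM. C1ra and C1rb are similar copies, as are C4b and C4a, so the division of reads within each pair is uncertain. Of the lectin pathway genes, the ficolin gene Fcna had 2.29 and 9.86 FPKM (1.72) and the protease gene Masp1 2.65 and 9.89 FPKM (1.58), both at least 2-fold higher in the RON TK-/- library. Masp2 with 0.90 and 1.34 FPKM was within 2-fold, Mbl1, Mbl2 and Fcnb were listed at 0 in both libraries, and Colec10 and Colec11 had at most 0.0493 FPKM. C1ra, C1s, C3 and the regulator Serping1 are also made by fibroblasts, whose markers summed to 673.7 and 898.9 FPKM with Col3a1 3.52-fold and Pdgfra 2.72-fold higher in the RON TK-/- library, and the part of such cells in these values was not tested.

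No gene of the terminal pathway was detected (0 of 7), Hc, which encodes C5, being at 0.0403 and 0.0247 FPKM. Cfd, the protease that activates factor B, was listed at 0 in both libraries. Among soluble regulators, Serping1, the inhibitor of C1r and C1s, was more abundant than any of the 9 genes in the WT library, with 496.1 FPKM there and 260.6 FPKM in the RON TK-/- library (log2 ratio -0.93). The clusterin gene Clu had 2.30 and 0.65 FPKM (-0.998, just inside 2-fold). The 3 detected membrane regulators were within 2-fold, with Cr1l (Crry) at 46.0 and 40.0 FPKM, Cd59a at 9.36 and 14.6 FPKM, and Csmd1 at 1.40 and 1.28 FPKM.

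Of the receptors for other C3 fragments, the integrin chains Itgam and Itgax were at least 2-fold higher in the RON TK-/- library. Itgam, the alpha chain of complement receptor 3, had 61.0 and 185.0 FPKM (log2 ratio 1.58) and Itgax, that of complement receptor 4, 2.89 and 29.5 FPKM (2.97). Their shared beta chain Itgb2 had 163.3 and 273.6 FPKM (0.74), within 2-fold and near the median of detected genes. Cr2 and Vsig4 were below 1 FPKM in both libraries. Genes of proteins reported to bind C1q were within 2-fold on the scale of FPKM + 1. Calr had 442.8 and 824.4 FPKM (0.89), Cd93 42.2 and 44.9 FPKM, and Lrp1 108.5 and 115.0 FPKM. C1qbp had 32.2 and 64.8 FPKM (0.99) and was just inside the limit. Its ratio of plain FPKM was 2.01, and with a pseudocount of 0.1 FPKM it was past 2-fold. C5ar2, the other C5a receptor, was below the minimum with 0.38 and 0.47 FPKM.

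**Figure D4:**
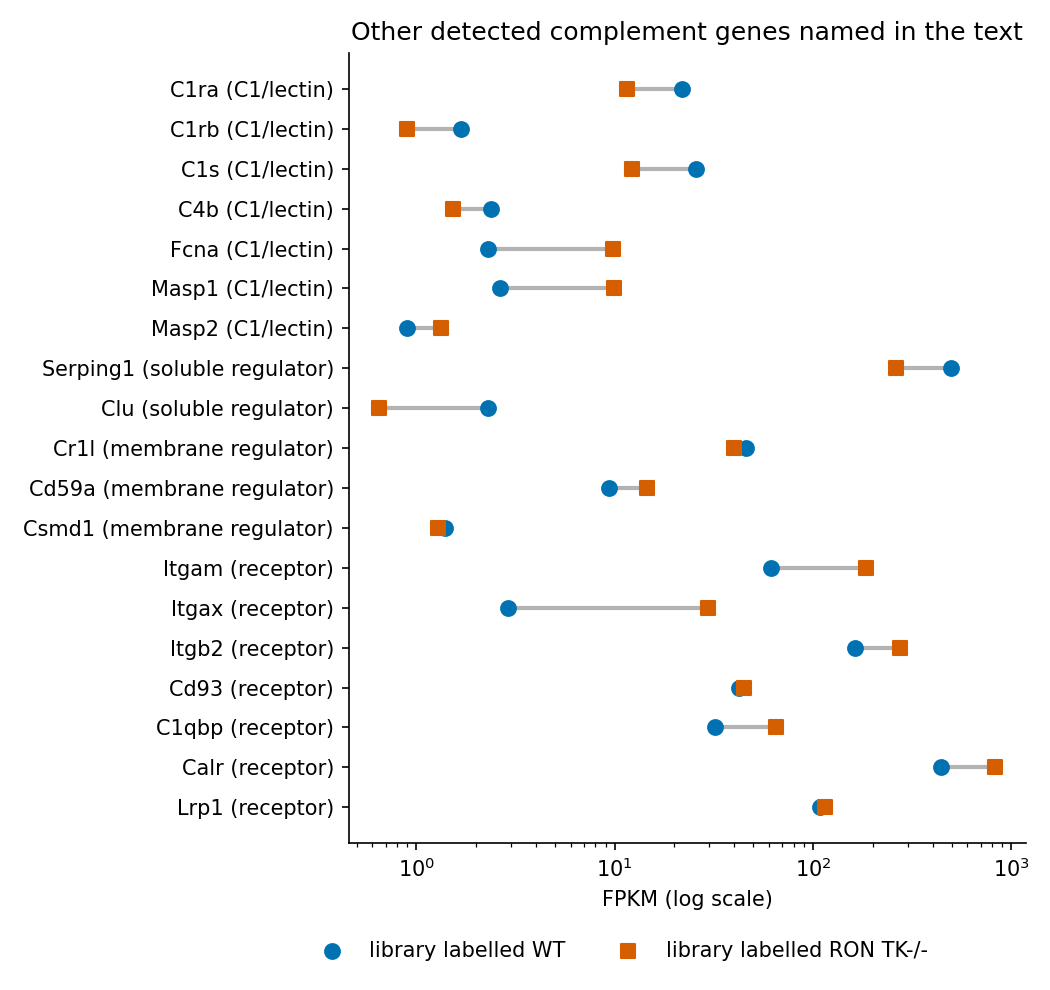
FPKM on a log axis of the other detected complement genes named in the text, with circles for the WT library and squares for the RON TK-/- library. Itgax (2.89 and 29.5), Fcna, Masp1 and Itgam are at least 2-fold higher in the latter, and C1s at least 2-fold lower.

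The genes most like each of the 9 were those nearest by Euclidean distance of log2(FPKM + 1) over the 2 libraries, among 10764 detected genes. Over only 2 libraries such likeness means no more than similar levels in each. Nearest to C3 were the TNF receptor gene Tnfrsf1b (359.4 and 42.0 FPKM), the kinase gene Pim1 (290.3 and 43.3 FPKM) and the NADPH oxidase gene Cybb (312.8 and 30.8 FPKM). Nearest to Cfb were Mxd1 (59.3 and 2.04 FPKM), the growth factor gene Pdgfb (60.8 and 1.21 FPKM) and Il15ra (45.2 and 2.23 FPKM). Csf1r, the receptor for the macrophage growth factor, was the second nearest to C3ar1, with 183.6 and 266.8 FPKM, after Atp5k and before Slc25a3. For C1qa these were Tmem176b, Tspan3 and Stx12, for C1qb Cox17, Romo1 and Ppp2ca, and for C1qc Asah1, Ppib and Rnf130. The C1q chains were not among each other's 3 nearest genes. By distance from C1qa, C1qb ranked 1089 and C1qc 1850, from C1qb, C1qc ranked 239 and C1qa 609, and from C1qc, C1qb ranked 162 and C1qa 794. For C2 they were Myo1d, Ppargc1b and Zfp945, for Cfp App, Eif1 and Arpc5, and for C5ar1 Hcls1, Dnajb6 and Tor3a.

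Detected genes within 100 kb were read beside the members, and against the 8.71% of all detected genes that were at least 2-fold lower and the 25.6% that were higher. Around C3, 3 of 5 neighbours were at least 2-fold lower in the RON TK-/- library: the cytokine gene Tnfsf9 with 38.8 and 3.69 FPKM, the signalling gene Vav1 with 49.5 and 15.04 FPKM and Trip10 with 46.6 and 15.7 FPKM. The nearest neighbour of C3, Gpr108, had 39.5 and 29.3 FPKM, and Gm11110 had 2.16 and 1.64 FPKM. Around Cfb, 1 of 10 neighbours was at least 2-fold lower and 2 at least 2-fold higher, the lower gene being C2. Nelfe, 1 base from Cfb, had 12.5 and 13.6 FPKM, and Skiv2l had 13.8 and 16.1 FPKM. Dxo (6.35 and 7.23 FPKM) and Stk19 (11.9 and 8.54 FPKM), further out on that side of Cfb, were within 2-fold too. Around the C1q genes the neighbour outside the trio was Zbtb40, with 0.83 and 1.73 FPKM. Of the 7 neighbours of Cfp 0 were 2-fold apart, of the 6 of C5ar1 1 was higher (Prr24), and of the 4 of C3ar1 2 were higher, among them the lectin gene Clec4a3 with 1.67 and 36.8 FPKM. The remaining higher genes were Necap1 near C3ar1, Hspa1b and 1110038B12Rik near Cfb and C2, and Hspa1a near C2.

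**Figure D5:**
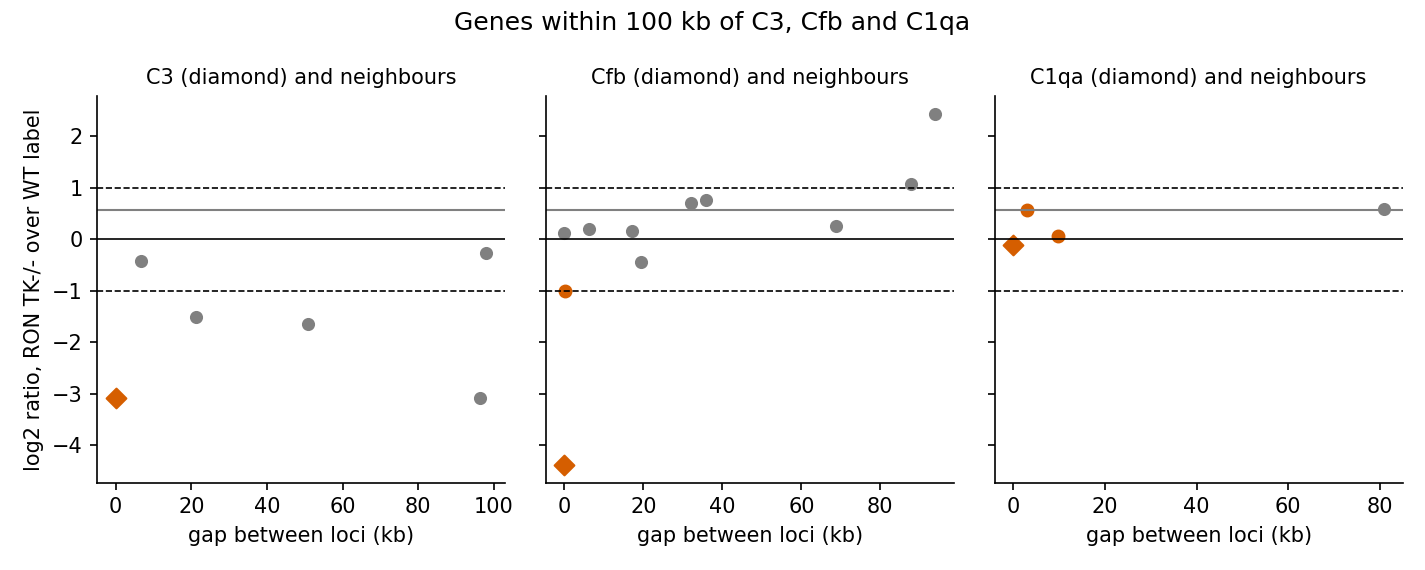
Log2 ratio of detected genes within 100 kb of C3, Cfb and C1qa against the gap between the loci in kb, with the named gene as an orange diamond at 0, other complement genes as orange points and further neighbours in grey. Dashed lines mark 2-fold and the grey line the median of detected genes. All 5 neighbours of C3 lie below 0, and C2 is the neighbour of Cfb below the lower dashed line.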

How the data were processed

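RNA was measured in 2 libraries, 1 per group, per the labels from TruSeq kits on total RNA and 50-base single reads. The authors deposited FPKM per RefSeq transcript in tables with the column names of Cufflinks, per the file headers. The deposited coverage is the mean read depth per base of a transcript, per the file headers. Build mm10 and the program DESeq, without role or version, appear in the submitters' processing notes. For the aligner, the sources used here give no name. Both tables held 31580 rows.

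Rows of a symbol were summed, and log2 ratios used FPKM + 1. Detected means at least 1 FPKM in either library. Reads were estimated as coverage times length over read length. Coverage over FPKM gave a depth of about 59800000 reads (WT) and 67200000 reads (RON TK-/-), so that 3 reads of C2 equal 0.019 and 0.0169 FPKM. These limits cover counting error only. Locus starts lay 1 base before those of RefSeq for 12698 genes and on them for 725, so they were read as 0-based and are given 1-based. The named genes were the 9 members, the detected genes of the fixed complement lists (1 is counted but not reported here), the 3 nearest genes of each member (clone-like and small RNA symbols left out) and detected genes within 100 kb. Members and lists were chosen with earlier results of these data known. Scripts in Python 3.11.15 with pandas 2.3.3 were tested on simulated data. Alternatives changed the pseudocount, minimum, scaling, rows used, threshold or source of the level.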

Additional observations from a re-analysis of the deposited data

How the results depend on the processing

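C3 and Cfb were at least 2-fold lower in the RON TK-/- library under every alternative tried, and no complement gene of the 9 was at least 2-fold higher under any. The number of the 9 that were lower ranged from 2 to 4. C2 left the count with a pseudocount of 5 FPKM, a minimum of 5 FPKM or a 4-fold threshold. Of all detected genes, 6.12%, 10.1% and 4.10% were lower under these settings in that order, against 8.71% in the main one. C5ar1 joined the count with median rescaling or a 1.5-fold threshold, where 14.4% and 12.5% of detected genes were lower. The median log2 ratio of the 9 was -0.69 after median rescaling and -0.19 after TPM rescaling. Of the 20 other complement genes, 5 were lower after median rescaling, where 14.4% of detected genes were. With a pseudocount of 0.1 FPKM or estimated reads 2 were lower, where 9.84% and 8.82% of detected genes were. TPM rescaling gave 2 lower of 23 detected, where 9.81% were. With a pseudocount of 5 FPKM 0 were lower, where 6.12% were. Pseudocounts of 0.1 and 5 FPKM gave 5 and 3 higher, where 34.8% and 8.71% of detected genes were. Of 20, a 1.5-fold threshold gave 9 higher and 4 lower, where 48.9% and 12.5% of detected genes were, and a 4-fold threshold 1 and 0, where 3.71% and 4.10% were. No paired analysis was possible because each group has 1 library. Genotype, treatment and labelling cannot be told apart. Without replicates, no difference here could be set against the spread between cultures or animals.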
